A study of Mus musculus with 24 samples.

Results

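The comparison described here sets sclera titled myopia against sclera titled control, 3 arrays each, chosen by sample title as 6 of the 24 arrays of the series. All animals were C57BL/6J mice aged 34 days. A frosted plastic diffuser had covered the right eye for 10 days from postnatal day 24, which deprives the retina of sharp images, and the untreated left eye of the same mice was the control. The labels give 9 mice for sclera, of 15 in the series, and do not say which animals an array held, so the p-values below measure only the spread between these arrays, which may be technical. For sclera and retina the title contradicts the source name and phenotype fields about which arm is which. The wording of the description also opposes the title, in whole eye too, where title, source name and phenotype go together. Arms are given here as titled, so the direction is unsettled, and by the phenotype field every arm difference of sclera and of retina below would turn in sign, while those of whole eye would not. No group carried an allele or agent other than the diffuser.

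The sclera is the fibrous outer coat of the eye, made by fibroblasts that lay down mainly type I collagen, and its remodelling and thinning accompany the lengthening of the eye in myopia. MicroRNAs (miRNAs) are short RNAs that lower the output of messenger RNAs with sites complementary to their seed, the bases from position 2 to position 8. Each hairpin precursor can give a miRNA from its 5p strand and another from its 3p strand, and many hairpins lie in clusters that share a transcript. A dissected sclera can carry retina, pigment epithelium, extraocular muscle, conjunctival epithelium and blood, and the miRNAs of those cells are well known markers. In bulk RNA, fewer cells of a type and less RNA per cell cannot be told apart.

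The sequences below are the members on which the account turns, from RefSeq tables of the GRCm38.p6 build, which held 236 of the 311 miRNAs tested in sclera. Capitals mark the seed. The miR-214 strands come from the transcript Dnm3os antisense to Dnm3. The miR-199a strands come from more than 1 gene, within Dnm3os and within Dnm2. The strands of miR-199a and miR-214 are shown because several of them lay higher on every titled myopia array. They also set sclera apart from the other tissues.
miR-199a-3p: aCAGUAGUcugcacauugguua
miR-199a-5p: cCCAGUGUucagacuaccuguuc
miR-214-5p: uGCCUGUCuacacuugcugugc
miR-214-3p: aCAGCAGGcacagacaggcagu
miR-204 and miR-211, from introns of the channel genes Trpm3 and Trpm1, mark pigment epithelium. They share a seed and 21 of 22 bases, and both lay lower in titled myopia.
miR-204-5p: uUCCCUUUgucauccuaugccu
miR-211-5p: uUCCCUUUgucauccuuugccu
miR-27a and miR-27b come from different chromosomes, share 20 of 21 bases, and formed the seed family in which every tested member had arms that did not overlap.
miR-27a-3p: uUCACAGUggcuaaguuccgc
miR-27b-3p: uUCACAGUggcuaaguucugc
miR-148a and miR-152, the latter within Copz2, share a seed and 18 of 21 compared bases.
miR-148a-3p: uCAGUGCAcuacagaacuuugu
miR-152-3p: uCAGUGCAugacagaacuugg
miR-379 and miR-411 open the large miRNA cluster of the imprinted Dlk1-Dio3 locus on chromosome 12.
miR-379-5p: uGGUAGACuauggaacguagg
miR-411-5p: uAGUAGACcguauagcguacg
miR-721 carries the seed of miR-130a, yet its value stood far from those of that family.
miR-721: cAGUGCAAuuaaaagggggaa
miR-130a-3p: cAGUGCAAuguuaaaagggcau
miR-675, processed from the imprinted H19 transcript, was detected on every sclera array and on no array of the other tissues.
miR-675-3p: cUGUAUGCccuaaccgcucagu

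Between 274 and 317 of 696 miRNAs were detected per sclera array, 266 on all 6 and 368 on none. The mean was 300.3 ± 23.1 (SD, n = 3) in titled control and 301 ± 14.2 (n = 3) in titled myopia, a difference far inside the spread (exact permutation test, two-sided, p = 1, where 3 against 3 cannot go below 0.1). Each slide held 1 array of each titled arm, with titled control in column 2 and titled myopia in column 1, so position on the slide and arm cannot be told apart. The number of arrays limits the precision.

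Titled control replicate 3 stood apart from the other 5 sclera arrays. Over the tested miRNAs its correlation with them was 0.945 to 0.960, against 0.978 to 0.993 among the others, and its median gap to them was 0.45 to 0.54 on the log2 scale, against 0.11 to 0.24. It also had the fewest detected miRNAs, 274. Compared with the mean of the other controls it was more than 2-fold lower for 47 miRNAs and more than 2-fold higher for 18. The photoreceptor and sensory list (miR-183, miR-96, miR-182) was lower there by a median of -2.74 and the neuronal list by -1.03, while the pigment epithelium list was higher by 0.40. Every level is a log2 signal relative to the 75th percentile of its array. On that scale miR-124-3p, the main neuronal miRNA, was 2.90, 2.99 and 0.01 on the titled control arrays and 2.65, 1.68 and 2.69 on the titled myopia arrays. miR-96-5p, from the cluster of photoreceptors and other sensory cells, was 2.80, 2.95 and -0.44 against 2.42, 1.66 and 2.72. Retina-linked signal was thus lowest on titled control replicate 3 and next lowest on titled myopia replicate 2. Results that rest on this array are given with and without it, and its part in them was not tested beyond those values.

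**Figure D1:**
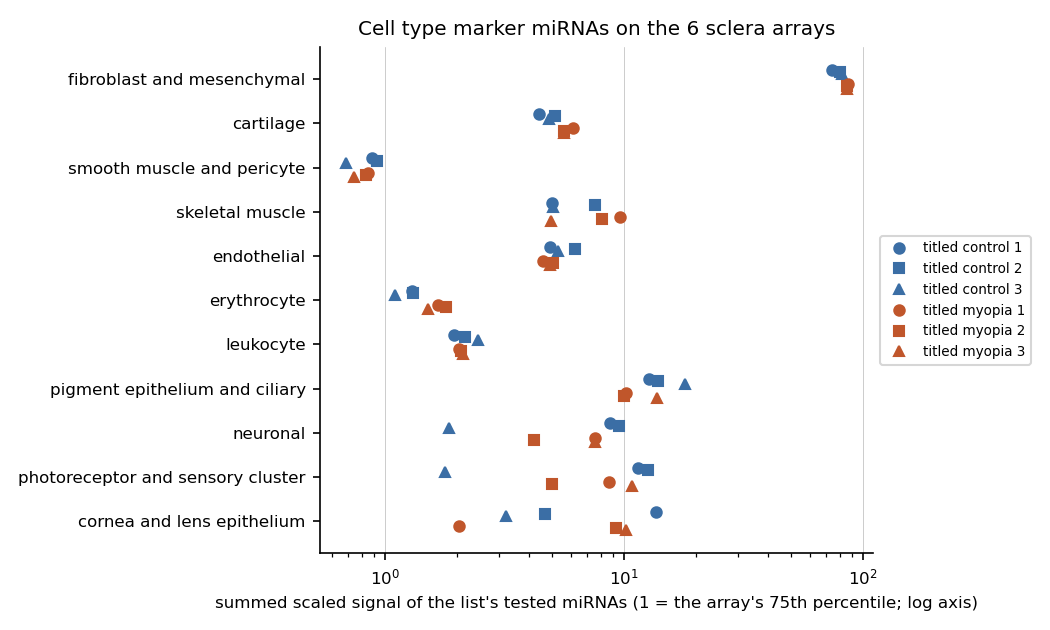
Summed scaled signal of each cell type marker list (rows) on the 6 sclera arrays; the horizontal axis is logarithmic, 1 is the array's 75th percentile, blue is titled control, orange titled myopia, and the marker shape is the replicate. Within a row the neuronal and photoreceptor lists are lowest on titled control 3 (1.85 and 1.77), and the cornea and lens list is lowest on titled myopia 1 (2.04); rows are not compared with each other.

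Epithelial miRNAs varied in another pattern. The cornea and lens list, which holds the miR-200 family, miR-205 and miR-203 of surface epithelium and miR-184 of cornea and lens, summed to 13.7, 4.67 and 3.20 on the titled control arrays and to 2.04, 9.26 and 10.2 on the titled myopia arrays. miR-205-5p, a marker of stratified epithelium, was 0.76, -0.62 and -1.28 against -2.46, 0.22 and 0.26. Titled control 1 and titled myopia 1 lay at opposite ends, and the arms overlapped widely. Skeletal muscle miRNAs summed to 5.01, 7.56 and 5.06 in titled control and to 9.63, 8.08 and 4.97 in titled myopia. miR-1a-3p, the muscle miRNA that represses non-muscle genes, was 0.82, 1.40 and 0.11 against 1.79, 1.53 and 0.74.

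The tissue label was checked against retina and whole eye, with both arms of each tissue averaged, so that this check does not depend on which arm is which. In a limma fit of all 24 arrays, 130 of 426 miRNAs were higher in sclera than in retina and 250 lower (adjusted p under 0.05; 30.5% and 58.7% of those tested). Against whole eye 131 were higher and 171 lower (30.8% and 40.1%). Undetected on every array of a tissue compared were 21 of the higher and 94 of the lower against retina. For whole eye this held for 11 and 45. Such differences are bounds, and these miRNAs passed the filter through other groups alone, so it largely fixed their direction. Over miRNAs detected on every array, 91 were higher and 124 lower than in retina, and 96 higher and 96 lower than in whole eye. Of the miRNAs past the threshold, 80 were higher and 78 lower than in both tissues. The split into higher and lower moved with the scaling. Against retina it was 244 and 68 with normexp background, 62 and 304 with no scaling between arrays, 173 and 181 with the percentile taken over all miRNAs, 165 and 204 with quantile normalization, and 164 and 182 in the series value table. Against whole eye it was 315 and 48 with normexp, 63 and 229 with no scaling, 158 and 132 with the percentile over all miRNAs, 145 and 150 with quantile normalization, and 164 and 108 in the series value table. Control spots at the array corners read 104 to 163 units on sclera arrays, 196 to 576 on retina arrays and 137 to 487 on whole-eye arrays, and their part in these counts was not tested. Tissue and position on the slide cannot be told apart, and tissues may share animals.

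The miR-199 and miR-214 strands were far higher in sclera than in either tissue, except miR-214-5p. miR-199b-5p ran from 3.31 to 3.54 over the sclera arrays (median 3.44), from -5.41 to -2.81 in retina (median -5.20) and from -0.39 to 0.90 in whole eye (median 0.33). That is 315-fold above retina (log2 8.30, SE 0.32, adjusted p = 9.44e-16) and 8.72-fold above whole eye (adjusted p = 1.72e-09). miR-199a-3p was 258-fold above retina and miR-199a-5p 241-fold, with every sclera array above every retina and whole-eye array. miR-214-3p was detected on no retina array and was at least 215-fold higher in sclera, set against the lowest signal each array could read, and 11.02-fold above whole eye. Of the 14 tested members of the fibroblast and mesenchymal list, 11 were higher and 2 lower than in retina, and 12 were higher and 1 lower than in whole eye. The shares of all tested miRNAs were 30.5% and 58.7%, and 30.8% and 40.1%.

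The cartilage miRNAs, miR-140 from the Wwp2 gene and miR-455 from Col27a1, were higher than in either tissue for all 4 tested strands. Against whole eye miR-140-3p was 5.08-fold and miR-140-5p 4.38-fold higher (limma, adjusted p = 2.18e-16 and 3.07e-16). miR-455-3p was 17.4-fold above retina and 4.69-fold above whole eye. Of 6 tested skeletal muscle miRNAs, 5 were higher and 1 lower than in retina, and likewise against whole eye. miR-133b-3p was 22.1-fold above retina and 3.20-fold above whole eye, and miR-1a-3p 22.0-fold and 2.80-fold. By contrast, miR-499-5p was detected on no sclera array, but on 6 retina and 12 whole-eye arrays. miR-223-3p, the neutrophil miRNA, was 29.9-fold above retina and 5.67-fold above whole eye, but the leukocyte list was split. Of its 9 tested members, 5 were higher and 4 lower than in retina, and 5 were higher and 3 lower than in whole eye. These cartilage, muscle and leukocyte counts stand beside 30.5% higher and 58.7% lower than retina over all tested miRNAs. Against whole eye the shares were 30.8% and 40.1%.

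H19-derived miR-675-3p ran from -5.79 to -4.97 over the sclera arrays and was at least 5.15-fold above retina and at least 3.78-fold above whole eye (limma, adjusted p = 7.69e-16 and 1.03e-16). No array of those tissues detected it, so it was tested through sclera alone. Its p-values set detected against undetected signal and add nothing to that difference in detection. Besides miR-675-3p, 8 miRNAs were detected on every sclera array and on no retina array. They were miR-10b-5p, miR-133a-5p, miR-200a-3p, miR-200c-3p, miR-214-3p, miR-299-3p, miR-450a-5p and miR-503-5p. All 8 members of the X-linked growth cluster (miR-322, miR-503, miR-351, miR-450 and miR-542, linked to muscle differentiation and cell cycle exit) were higher in sclera than in either tissue. Of these, 6 were detected on no retina array and 4 on no whole-eye array, so their differences are bounds. Beside this, 30.5% of all tested miRNAs were higher than in retina and 30.8% higher than in whole eye. The converse set was larger, with 46 miRNAs detected on every retina array and on no sclera array.

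Retinal and neuronal miRNAs were lower in sclera, though most were still detected there. All 17 tested neuronal miRNAs were lower than in retina (median -4.64) and lower than in whole eye (median -3.45), beside 58.7% and 40.1% of all tested miRNAs. miR-129-2-3p had the lowest value against retina among miRNAs detected on every array of both tissues, at -6.03 (SE 0.16), and miR-9-5p lay at -4.91 (SE 0.13). miR-124-3p ran from -0.12 to 2.60 over the sclera arrays, against 6.38 to 6.49 in retina. The 4 photoreceptor and sensory strands were lower by a median of -4.34. Of the 19 neuronal miRNAs on the array, 7 were detected on no sclera array, among them miR-137-3p, miR-138-5p and miR-383-5p, and the differences of such members are limited by the lowest signal that could be read. Those of them that were tested passed the filter only through other tissues, so their lower values were largely fixed by it. The pigment epithelium miRNAs differed less, at -1.55 against retina for miR-211-5p and -0.95 for miR-204-5p. The epithelial list was split by reference, with 8 of 12 members higher than in retina, 0 of 12 higher than in whole eye and 3 lower. The shares of all tested miRNAs were 30.5%, 30.8% and 40.1%.

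**Figure D2:**
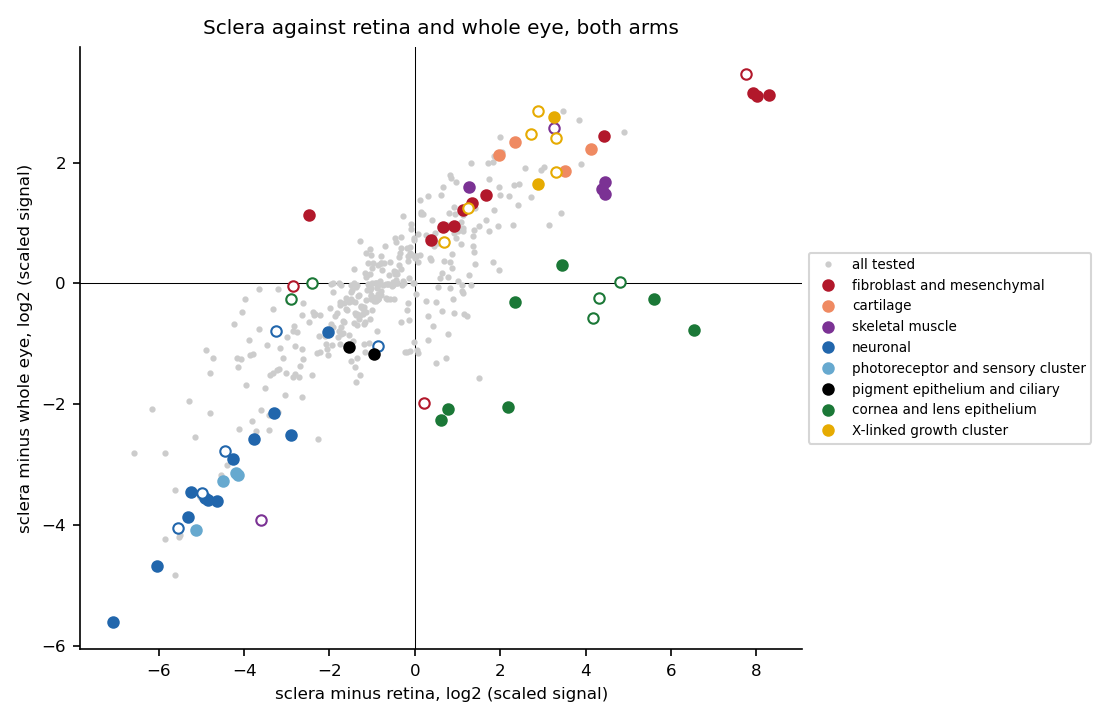
Log2 difference of sclera from retina (horizontal) and from whole eye (vertical) for the miRNAs tested in all 24 arrays, with lists in colour; open symbols are miRNAs undetected on every array of a tissue compared, whose difference is a bound. The miR-199 and miR-214-3p points lie at the upper right (7.75 to 8.30 against retina), and neuronal miRNAs at the lower left.

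The arms of the sclera were then compared, which asks whether form deprivation changes scleral miRNAs. No miRNA passed the threshold (0 of 311, 0%, limma, smallest adjusted p = 0.887), and 7 had an unadjusted p under 0.05 (2.25%). The titled myopia arrays lay higher for 207 miRNAs (66.6%) and lower for 104 (33.4%), with a median difference of 0.08 on the log2 scale. That median depended on scaling, from -0.09 with no scaling to 0.11 with array weights, and was -0.07 with normexp, so differences below are best read against it. In 30 miRNAs (9.65%) all 3 titled myopia arrays lay above all 3 titled control arrays, and in 11 (3.54%) below. Within the slides, 64 miRNAs were higher on all 3 (20.6%) and 25 lower on all 3 (8.04%).

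Precision set what could be seen. The 95% interval of the difference had a median half-width of 0.52, or 1.44-fold, and lay within 2-fold either way for 222 of 311 miRNAs and within 1.5-fold for 118. For those 222 a difference beyond 2-fold lies outside the interval, while the others were not measured finely enough to say so. The 104 brightest miRNAs had a median half-width of 0.42 and the 104 dimmest 0.64. Differences over 2-fold were seen for 2 miRNAs only, miR-721 at -1.57 and miR-466c-5p_v15.0 at -1.06. The latter was detected on 2 titled control arrays and on no titled myopia array, so it was tested through titled control alone. Its value sets detected against undetected signal and cannot be read as a measured difference in level.

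**Figure D3:**
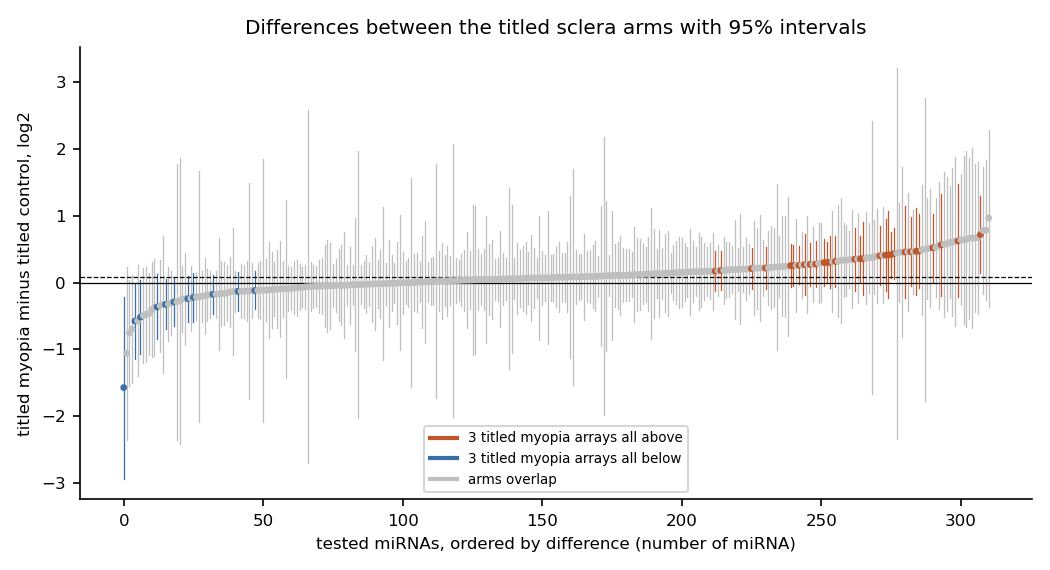
Log2 difference, titled myopia minus titled control, for the 311 miRNAs tested in sclera, ordered by size, each with its 95% interval; the dashed line is the median, 0.08. Orange marks the 30 miRNAs whose titled myopia arrays all lie above the controls and blue the 11 whose arrays all lie below; 7 intervals leave out 0.

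Leaving out titled control replicate 3 moved the median toward 0. The median dropped from 0.08 to 0.01, with 162 of 310 miRNAs above 0 and 148 below, and 24 had an unadjusted p under 0.05, of which 17 were higher and 7 lower (limma, 0 past the threshold, smallest adjusted p = 0.382). Only 2 of those 24, miR-214-5p and miR-150-5p, were also under 0.05 with the array included. Of the 30 miRNAs that lay wholly higher, titled control 3 was the control farthest from titled myopia in 25, and their median difference fell from 0.35 to 0.14 without it. Of the 11 wholly lower it was farthest in 9, and their median moved from -0.29 to -0.27. The sizes of the higher values therefore rest largely on this array, and those of the lower values much less.

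The fibroblast and mesenchymal list covers the cells that build the scleral coat. Of its 12 tested members, 9 were above 0 with a median of 0.26, beside 66.6% and 0.08 over all tested miRNAs. Of the 12, 6 lay wholly higher and 0 wholly lower, beside 9.65% and 3.54%. The medians within slides were 0.25, 0.14 and 0.35, and without titled control 3 the median was 0.11, beside 0.01 for all miRNAs. Relative to all miRNAs the list stayed above 0 in each of 19 alternatives, by 0.08 to 0.27. None of its members passed.

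miR-214-5p, at chr1:164153533-164153549 (mm9), had the smallest p of all. Its level was -5.15, -4.98 and -5.76 in titled control and -4.42, -4.57 and -4.76 in titled myopia. The arms did not overlap, and the difference was 0.72 (SE 0.24, 95% interval 0.14 to 1.29, limma, adjusted p = 0.887). It was 0.42 without titled control 3 and -0.04 with normexp. The other strand, miR-214-3p, at chr1:164153578-164153590, lay at 0.10, 0.27 and 0.81 against 0.58, 0.47 and 0.45, so its arms overlapped and its difference was 0.11 (SE 0.21). The strand gap of 0.61 was the second largest of 47 hairpins with both strands tested, after 0.64 for miR-193. miR-214-5p also ran against the tissue pattern of the list, 5.57-fold lower in sclera than in retina, where it was detected on 5 of 6 arrays. It was not alone, since 2 of the 14 members tested were lower than in retina, the lowest at -2.85.

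Both strands of miR-199a lay wholly higher. miR-199a-3p was 3.85, 4.08 and 3.73 in titled control and 4.24, 4.23 and 4.26 in titled myopia, a difference of 0.35 (SE 0.14, 1.28-fold, limma, adjusted p = 0.887). miR-199a-5p was 1.82, 1.96 and 1.75 against 2.22, 2.11 and 2.11, a difference of 0.30 (SE 0.13). miR-199b-5p, from a separate hairpin on chromosome 2, was 3.71, 3.82 and 3.44 against 3.96, 3.97 and 3.94 (0.30, SE 0.15). In all 3 the titled myopia arrays lay close together and above every control, with titled control 2 nearest to them. miR-199a-3p comes from more than 1 gene and shares its sequence between them, so the source cannot be told apart.

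Other fibroblast members were closer to 0 or overlapped. miR-152-3p lay at 0.32 (SE 0.16) and miR-22-3p at 0.22 (SE 0.13), each wholly higher. miR-21-5p, widely raised in fibrosis, was 1.98, 2.03 and 1.04 against 1.91, 2.15 and 2.21, and its difference of 0.41 dropped to 0.02 without titled control 3. miR-125b-5p, miR-99a-5p and miR-100-5p lay at -0.16, -0.11 and -0.06.

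The miR-29 family, which represses collagen messenger RNAs and is the best known miRNA brake on extracellular matrix, stood out on a single array. All 5 tested strands were above 0 (median 0.20), but no arms separated. miR-29b-3p was 1.45, 1.41 and 0.01 in titled control and 1.42, 1.56 and 1.37 in titled myopia, so the difference of 0.49 became -0.05 without titled control 3. miR-29a-3p and miR-29c-3p went from 0.20 and 0.32 to -0.04 and -0.15.

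In the cartilage list all 4 strands were above 0, with a median of 0.22 and slide medians of 0.29, 0.20 and 0.24. miR-140-5p, at chr8:110075150-110075170, was 1.05, 1.34 and 0.91 in titled control and 1.60, 1.47 and 1.53 in titled myopia. Its arms did not overlap, and the difference was 0.43 (SE 0.16, 1.35-fold, limma, adjusted p = 0.887). It was 0.27 without titled control 3. The 3p strand of the same hairpin lay at 0.13 (SE 0.15), with titled control 3 the highest of its controls at 1.40.

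**Figure D4:**
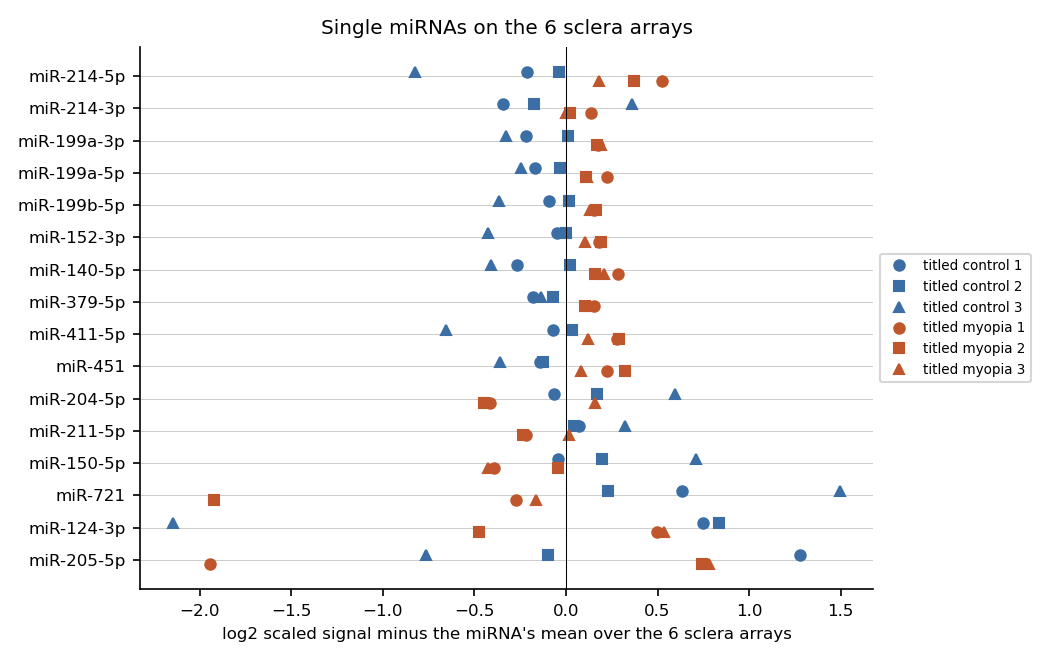
Level of 16 miRNAs on each sclera array as the log2 deviation from that miRNA's mean over the 6 arrays; blue is titled control, orange titled myopia, and the marker shape is the replicate. The miR-199 strands separate by arm with small gaps, miR-214-5p and miR-721 with larger ones, while miR-124-3p lies lowest on titled control 3 and miR-205-5p on titled myopia 1.

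The imprinted Dlk1-Dio3 locus held the largest group. Of 74 of its miRNAs on the array 31 were detected on no sclera array and 40 were tested. Of those 40, 37 were above 0 with a median of 0.26, 12 lay wholly higher and 0 wholly lower, and 24 were higher on all 3 slides. Over all tested miRNAs 66.6% were above 0, 9.65% lay wholly higher, and 20.6% were higher on all 3 slides. The slide medians were 0.31, 0.17 and 0.25. The list stayed above all miRNAs in 19 of 19 alternatives, by 0.01 to 0.21, and its median without titled control 3 was 0.11. Its miRNAs share a transcript and are no independent replicates.

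miR-379-5p, the entry hairpin at chr12:110947280-110947295, was -0.996, -0.89 and -0.95 in titled control and -0.67, -0.71 and -0.69 in titled myopia. Its arms were tight and separate, with a difference of 0.26 (SE 0.12), and titled control 3 was not its outlying array. miR-411-5p, its neighbour at chr12:110948403-110948420, was -2.10, -1.999 and -2.69 against -1.75, -1.74 and -1.91 (0.46, SE 0.21). Both strands of the miR-411 hairpin lay wholly higher, with miR-411-3p at 0.28 (SE 0.14), though at -0.14 with normexp. The largest values of the locus rested on titled control 3. miR-136-5p was -1.50, -1.67 and -3.07 against -1.29, -1.06 and -1.55, so its 0.78 dropped to 0.22 without that array, and miR-376a-5p, detected on 2 of 3 control arrays, went from 0.78 to 0.27 and was -0.07 with normexp.

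In the X-linked growth cluster, all 8 tested strands were above 0, with a median of 0.35 and 2 wholly higher, beside 66.6% above 0 and 9.65% wholly higher over all tested. miR-450b-3p, detected on 2 of 3 control arrays, was -4.57, -4.33 and -5.13 against -4.15, -4.16 and -4.29 (0.47, SE 0.22), and miR-450a-5p also differed by 0.47 (SE 0.27), but both were below 0 with normexp, at -0.05 and -0.07. The list lay above all miRNAs in 18 of 19 alternatives. Without titled control 3 the list's median was 0.10.

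The pigment epithelium miRNAs went the other way. miR-211-5p, at chr7:71350717-71350738, was 2.51, 2.48 and 2.76 in titled control and 2.22, 2.20 and 2.46 in titled myopia. Its arms did not overlap, though titled myopia 3 came close to titled control 2, and the difference was -0.29 (SE 0.15, limma, adjusted p = 0.887). miR-204-5p was 2.83, 3.06 and 3.49 against 2.48, 2.44 and 3.05 (-0.47, SE 0.25), with titled myopia 3 inside the control range. Each was lower on all 3 slides, with list medians of -0.32, -0.45 and -0.37. Slide 3 had the highest array of each arm for both miRNAs. The median of -0.38 became -0.31 without titled control 3, and relative to all miRNAs it was below 0 in 19 of 19 alternatives. In the fit of all 24 arrays the differences were -0.46 for miR-211-5p and -0.64 for miR-204-5p (limma, adjusted p = 0.0775 and 0.0875). That fit scales over other miRNAs, and the fibroblast and mesenchymal median also lay lower there, at 0.09 against 0.26.

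The erythrocyte list, of 2 miRNAs, had the highest median of the 19 lists, 0.69, with slide medians of 0.32, 0.88 and 0.87, and 0.33 without titled control 3. That median was 0.42 over miRNAs detected on every array and 0.13 with normexp, so its size rested largely on the dim miR-144-3p. miR-451, the erythroid miRNA at chr11:77886689-77886709, was 0.35, 0.37 and 0.13 in titled control and 0.71, 0.81 and 0.57 in titled myopia. The arms were separate, and the difference was 0.42 (SE 0.14, 1.34-fold, limma, adjusted p = 0.887). Its cluster neighbour miR-144-3p, detected on 1 of 3 control and 2 of 3 myopia arrays, lay at 0.96 (SE 0.54) and at -0.08 with normexp. miR-142-3p, a general leukocyte miRNA, lay at 0.62 (SE 0.35) with titled control 3 low at -3.54. miR-223-3p, the neutrophil miRNA, lay at -0.003 (SE 0.13, 95% interval -0.33 to 0.32), and the summed leukocyte list was 1.95 to 2.45 in titled control and 2.05 to 2.11 in titled myopia.

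Of 9 tested leukocyte miRNAs 3 were above 0, with a median of -0.03, beside 66.6% of all tested miRNAs. Among the 9, 1 lay wholly higher and 1 wholly lower, beside 9.65% and 3.54%. Higher on all 3 slides were 3 and lower on all 3 was 1, beside 20.6% and 8.04%. miR-150-5p, the miRNA of mature lymphocytes, was the leukocyte member whose arms did not overlap on the lower side. Its level was -4.58, -4.34 and -3.83 in titled control and -4.93, -4.58 and -4.96 in titled myopia. Titled myopia 2 lay just below titled control 1, and the difference was -0.58 (SE 0.23, limma, adjusted p = 0.887). It was -0.43 without titled control 3. In the fit of all 24 arrays the spread is shared with the other tissues, and the scaling rests on 237 miRNAs instead of 266. The leukocyte median was -0.20 there against -0.03, and the part of the scaling in the calls was not tested. In that fit 2 of 426 miRNAs passed, both lower (0.469%). They were miR-150-5p at -0.74 (SE 0.16, limma, adjusted p = 0.0470) and miR-1940 at -0.92 (SE 0.20, adjusted p = 0.0470). miR-1940, detected on 2 of 3 control arrays and 1 of 3 myopia arrays, was -4.81, -4.86 and -5.16 against -4.99, -5.95 and -6.17, so its arms overlapped. No array of retina or whole eye detected it, so it was tested only through titled control sclera. The spread it shared with those tissues came from undetected signal, and its adjusted p cannot be read as evidence of an arm difference.

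miR-721, from within Cux1, had the lowest value of the comparison. It was -3.83, -4.23 and -2.96 in titled control and -4.73, -6.38 and -4.62 in titled myopia, where it was detected on 2 of 3 arrays. The arms did not overlap, and the difference was -1.57 (SE 0.56, 95% interval -2.93 to -0.21, limma, adjusted p = 0.887), or -1.28 without titled control 3. The other tested members of its seed family, miR-130a-3p, miR-130b-3p and miR-301a-3p, were all above 0 and none above 0.12. miR-188-5p, from an intron of Clcn5, lay at 0.52 (SE 0.21), but was detected on only 2 of 3 control arrays and 1 of 3 myopia arrays, and was -0.04 with normexp.

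Seed families were then examined as a property that the choice of arrays did not use. Among tested miRNAs with a RefSeq sequence, 75 fell into 26 families of at least 2 members with the same seed. All members were above 0 in 11 families, below 0 in 6 and mixed in 9. Beside this, 66.6% of all tested miRNAs were above 0, or 162 of 310 without titled control 3. In the miR-27 pair both members lay wholly higher. miR-27a-3p was 2.31, 2.32 and 1.35 in titled control and 2.39, 2.48 and 2.46 in titled myopia, and miR-27b-3p was 1.40, 1.44 and 0.87 against 1.48, 1.52 and 1.51. Their differences of 0.46 and 0.27 dropped to 0.07 and 0.02 without titled control 3, so this array carried nearly all of them. In the miR-148 and miR-152 family the members lay at 0.23 to 0.36, and miR-148a-3p dropped from 0.36 to 0.05. The miR-204 and miR-211 pair was the family whose members were lower on all 3 slides.

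All 9 let-7 family members with the shared seed were above 0, from 0.03 to 0.27, beside 66.6% of all tested miRNAs. The whole let-7 list lay above all miRNAs in only 15 of 19 alternatives. let-7i-5p, the single member that lay wholly higher, was 3.27, 3.43 and 3.15 against 3.57, 3.57 and 3.52 (0.27, SE 0.13). miR-181a-5p and miR-181b-5p, whose hairpins are neighbours, lay wholly lower at -0.18 and -0.13, as did miR-181a-1-3p at -0.33 (SE 0.15). miR-181a-5p stood at -0.28 without titled control 3, so its value did not rest on that array. miR-30c-5p and miR-30c-2-3p lay wholly lower at -0.12 and -0.24.

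Of 47 hairpins with both strands tested, 37 had strands of the same sign, 28 both above 0 and 9 both below, with a median gap between strands of 0.19. In 4 hairpins both strands lay wholly to 1 side, namely miR-199a and miR-411 higher, and miR-181a-1 and miR-30c-2 lower. Over all tested miRNAs 66.6% were above 0, 9.65% lay wholly higher and 3.54% wholly lower, so many pairs share a sign by that shift alone.

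**Figure D5:**
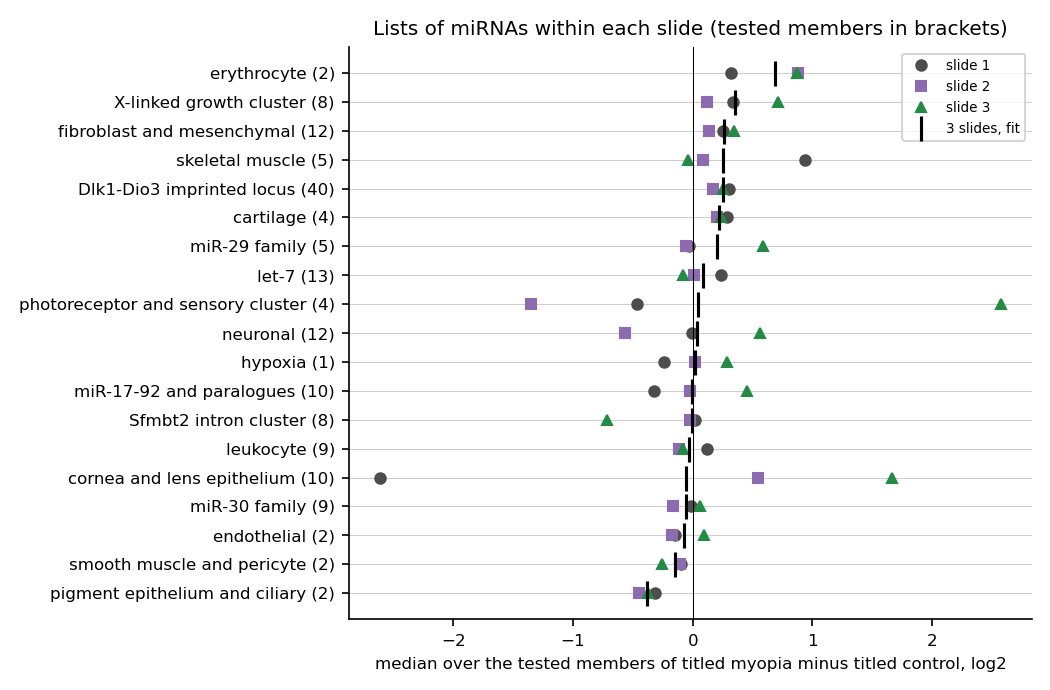
Median difference, titled myopia minus titled control (log2), of the tested members of each list within each of the 3 slides (symbols) and in the fit (bar). The fibroblast, cartilage, Dlk1-Dio3, X-linked and erythrocyte lists lie above 0 and the pigment epithelium and smooth muscle lists below 0 on every slide, while the photoreceptor list runs from -1.35 on slide 2 to 2.57 on slide 3 and the cornea and lens list from -2.61 to 1.66.

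Several lists of other tissues differed in sign between slides. The photoreceptor list had slide medians of -0.47, -1.35 and 2.57, the neuronal list -0.01, -0.57 and 0.56, and the cornea and lens list -2.61, 0.55 and 1.66. Their medians in the fit, 0.04, 0.03 and -0.05, are averages over these opposite values, and without titled control 3 they were -0.74, -0.57 and -0.70. Muscle miRNAs had slide medians of 0.94, 0.09 and -0.04. The smooth muscle list kept its sign, with slide medians of -0.10, -0.11 and -0.26. Its miR-145-5p lay wholly lower at -0.36, beside 3.54% of all tested miRNAs, and its miR-143-3p lay at 0.06. The endothelial strands miR-126-3p and miR-126-5p lay at -0.17 and 0.03. The summed marker levels of these cell types move between arrays beside the list values above, and their part in the single miRNA values was not tested.

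miRNAs that separate sclera from retina were set beside the arm difference. The 28 tested miRNAs at least 8-fold lower in sclera than retina had a median arm difference of -0.03, with slide medians of -0.20, -0.38 and 0.40. The 28 at least 8-fold higher had a median of 0.11, with slide medians of 0.12, 0.15 and 0.44. Without titled control 3 the median of the lower set was -0.39 and that of the higher set -0.0009, beside 0.01 for all tested miRNAs.

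The titled arm difference of sclera was last compared with that of retina and whole eye in the same fit, by an interaction contrast. It was lower than in retina for 7 of 426 miRNAs (1.64%) and higher for 0, and lower than in whole eye for 10 (2.35%) and higher for 0 (limma, adjusted p under 0.05). miR-150-5p and miR-1940 were in both sets. Of the 7 in the retina set, miR-150-5p alone was detected on every array of both tissues, and its titled arm difference, each tissue fitted alone, was 0.17 (SE 0.17) in retina and 0.13 (SE 0.07) in whole eye against -0.58 in sclera. Of the remaining 5 in the retina set, all were detected on no sclera array, as were 6 of the 10 in the whole-eye set. Both counts were 0 with normexp, in the series value table and without sclera titled control 3, titled myopia 2 or titled myopia 3. The members with the clearest sclera values had arm differences in the other tissues of either sign. In retina and whole eye miR-199a-3p lay at -0.72 (SE 0.62) and 0.12 (SE 0.22), miR-140-5p at -0.07 (SE 0.14) and 0.21 (SE 0.09), miR-451 at 0.27 (SE 0.18) and -0.10 (SE 0.17), and miR-211-5p at -0.10 (SE 0.13) and 0.12 (SE 0.08).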

How the data were processed

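Agilent 1-colour arrays with 696 mouse miRNAs, 20 spots each, were read for 24 samples. Spot intensity came from the deposited scanner files, background-subtracted by Agilent Feature Extraction version 11 per the submitters' processing notes. The deposited series value table, in log2, was used as an alternative only, since how it treats dim probes is not stated. Spots not called outliers by the scanner software were averaged per probe and summed per miRNA. Division by the array's 75th percentile, taken over those miRNAs that every array in a fit detected (266 for sclera, 237 for all 24), put arrays on 1 scale. Values were then floored at the median lowest detected signal (15 of 1866 sclera values) and put on the log2 scale. miRNAs detected on at least 2 of 3 arrays of a group were tested with limma (lmFit, eBayes), two-sided, with Benjamini-Hochberg adjustment at 0.05. The sclera arms used the 6 sclera arrays, and tissues and interactions all 24. The code was tested on simulated data. Named miRNAs were, since fewer than 10 passed, the 12 highest and 12 lowest of the 40 smallest p-values, those with arms not overlapping, the 8 largest tissue differences each way, all interactions past the threshold, and list examples with their other strands. Further miRNAs with arms not overlapping were named after their values were seen. The members and lists were chosen with earlier results of these data known. Probe positions are mm9, as in the scanner files. Alternatives covered background, scaling, floor, filter, array weights, slide block, arm labels and left-out arrays.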

Additional observations from a re-analysis of the deposited data

Results flagged for a closer look

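The titled arm difference of sclera differed from that of another tissue for the miRNAs below, by the interaction contrast of a limma fit of 24 arrays. Against retina the values, on the log2 scale, were -2.12 for miR-105 and -1.54 for miR-2136 (adjusted p = 0.0254), -2.35 for miR-673-3p (adjusted p = 0.0335), and -2.66 for miR-141-5p, -1.82 for miR-1936, -1.13 for miR-1940 and -0.965 for miR-150-5p (adjusted p = 0.0441). Against whole eye the values were -4.89 for miR-468-3p, -4.19 for miR-466h-5p, -3.16 for miR-294-3p, -3.06 for miR-669n, -2.62 for miR-672-5p and -2.14 for miR-669a_v15.0 (adjusted p = 0.0483). They were -3.69 for miR-1927, -2.75 for miR-669e-5p and -0.781 for miR-150-5p (adjusted p = 0.0484), and -0.92 for miR-1940 (adjusted p = 0.0487).

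Most of these miRNAs were not detected in sclera at all, so their values come from the arms of the other tissue. Those detected on sclera arrays were miR-150-5p and miR-669n on 6 of 6, miR-669a_v15.0 on 4 and miR-1940 on 3. miR-1940 was detected on no array of retina or whole eye. With the sclera arms taken from the phenotype field, 2 of the 10 values against whole eye turned in sign, those of miR-150-5p and miR-1940.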

How the results depend on the processing

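The sclera arm count was 0 under every alternative and without any 1 array (0 to 0), with 0 to 62 miRNAs at an unadjusted p under 0.05, except for 2 past the threshold with all 24 arrays in the fit (miR-150-5p and miR-1940). Same-numbered sclera arrays share a slide, but their deviations from the arm means did not run together (correlations of -0.37, -0.10 and -0.13). The replicate block gave 0 by limma, with 8 under an unadjusted 0.05 and a lowest adjusted p of 0.908. With normexp 16 named sclera values turned: miR-133a-5p -0.0971, miR-136-3p -0.0810, miR-144-3p -0.0841, miR-188-5p -0.0405, miR-214-5p -0.0386, miR-34b-5p -0.0976, miR-34c-5p -0.113, miR-376a-5p -0.0670, miR-376b-5p -0.0729, miR-380-3p -0.111, miR-411-3p -0.136, miR-431-5p -0.118, miR-434-5p -0.0364, miR-450a-5p -0.0660, miR-450b-3p -0.0520 and miR-542-3p -0.122. Tissue counts were 215 (retina) and 192 (whole eye) over miRNAs detected on every array, where fewer were tested, and 363 to 386 and 293 to 306 with 1 array left out. The detected-miRNA difference ran from -12.5 to 9 with 1 array left out. The interaction count with retina, 7, was 0 with normexp, the series value table or miRNAs detected on every array, 1 with outlier spots kept (chosen after seeing the data), 2 with the percentile over all miRNAs, 3 without scaling, 27 without a floor and 105 with array weights. It ran from 0 to 82 with 1 array left out, 82 without retina titled control 1 and 25 without retina titled myopia 3. With normexp miR-105 was 0.0554, miR-1940 0.162, miR-2136 0.131 and miR-673-3p 0.00506. The count with whole eye, 10, was 0 with normexp, the series value table, miRNAs detected on every array or on at least 1 array, the replicate block, outlier spots kept or arms from the phenotype field, 40 without a floor and 31 with array weights, and 0 to 14 with 1 array left out. With the phenotype arms miR-150-5p was 0.703 and miR-1940 0.920, since that field turns the sclera arms. The other causes were not tested. Dim miRNAs limit what could be seen.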
